A study of Mus musculus with 32 samples.

Results

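The Zfp-named zinc finger genes were chosen from the count table by symbol and by level. A gene was a member when its symbol was Zfp followed by a number and its mean over the 32 libraries was at least 2 CPM (counts per 1000000 counts in a library). Of 54429 symbols in the table, 374 had such a name and 289 reached that level. The mean level that chose the members is a description and not a result. The members just inside it were Zfp418 at 2.00 CPM, Zfp14 at 2.06 and Zfp661 at 2.11, and the genes just outside were Zfp90 at 1.93, Zfp286 at 1.88 and Zfp78 at 1.69. All 289 members were abundant enough to be tested.

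The libraries came from the mouse lung endothelial cell (EC) line Veravec. They were transfected in 2 rounds, either with control siRNA (named si-control) or with siRNA that targets Dnmt1 (named si-dnmt), and had no cytokine, TNF (TNFα, 10 ng/mL), IFN (IFNγ, 1000 U/mL) or TNF + IFN for 16 h. The 8 groups of siRNA and cytokine state held 4 libraries each. The study gives a pair of Dnmt1 siRNA sequences, and which of them each library received is not given in the sources used here. All groups carry a transfected siRNA, the cells are 1 line, and effects of the siRNA on genes other than Dnmt1 cannot be told apart from effects of Dnmt1 loss.

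Zfp is the mouse name for many genes whose proteins hold zinc fingers, small folds in which cysteine and histidine residues grip a zinc ion. In the common C2H2 kind, an array of fingers reads a DNA sequence. Many of these proteins also hold a KRAB box, which recruits Trim28 (KAP1) and with it the histone methyltransferase Setdb1, so that the bound site is silenced. Such KRAB proteins are best known for silencing retroelements and for keeping imprints, the methylation marks that set the parental copies of a gene apart. Dnmt1 copies DNA methylation at CG pairs onto the new strand after replication.

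Among 287 members with a coding sequence in GENCODE M21, 171 matched a KRAB box profile and 116 did not. The number of C2H2 finger matches per protein ran from 0 to 37, with a median of 12 in KRAB proteins and 8 in the others. Members with a KRAB box sat more often beside another Zfp-named gene on the chromosome, 119 of 171 against 23 of 116. The name is therefore a label for several kinds of protein. Zfp36, which binds AU-rich messenger RNA, was the member with a pair of CCCH fingers, and Zfp185 is an actin-bound LIM domain protein, and both had 0 C2H2 matches.

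The sequence upstream of 5 members is shown because the results turn on them: Zfp37 and Zfp367 had the largest rise and fall with si-dnmt, Zfp81 the next fall, and Zfp296 and Zfp455 were among the largest rises with cytokine. Each line gives the 250 bases before the most upstream RefSeq start (assembly GRCm38.p6) on the gene's own strand. Capitals mark CG, the pair that Dnmt1 methylates.
Zfp37, chr4:62208547-62208796, minus strand: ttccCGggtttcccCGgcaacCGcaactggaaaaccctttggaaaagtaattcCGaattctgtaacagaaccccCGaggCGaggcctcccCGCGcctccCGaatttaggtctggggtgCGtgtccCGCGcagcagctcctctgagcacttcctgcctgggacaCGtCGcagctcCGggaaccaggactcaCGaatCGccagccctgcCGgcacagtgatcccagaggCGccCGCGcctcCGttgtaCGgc
Zfp367, chr13:64153200-64153449, minus strand: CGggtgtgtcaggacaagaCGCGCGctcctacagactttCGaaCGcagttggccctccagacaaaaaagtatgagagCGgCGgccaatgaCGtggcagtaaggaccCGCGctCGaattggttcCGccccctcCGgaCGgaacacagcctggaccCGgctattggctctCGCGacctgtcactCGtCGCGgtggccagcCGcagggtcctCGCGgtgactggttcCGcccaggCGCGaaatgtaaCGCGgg
Zfp81, chr17:33358879-33359128, minus strand: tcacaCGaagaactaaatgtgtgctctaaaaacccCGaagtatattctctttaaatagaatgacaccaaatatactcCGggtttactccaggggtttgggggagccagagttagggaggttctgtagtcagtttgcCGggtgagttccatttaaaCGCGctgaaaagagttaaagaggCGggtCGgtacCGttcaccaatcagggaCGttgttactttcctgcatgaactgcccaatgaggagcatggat
Zfp296, chr7:19577037-19577286, plus strand: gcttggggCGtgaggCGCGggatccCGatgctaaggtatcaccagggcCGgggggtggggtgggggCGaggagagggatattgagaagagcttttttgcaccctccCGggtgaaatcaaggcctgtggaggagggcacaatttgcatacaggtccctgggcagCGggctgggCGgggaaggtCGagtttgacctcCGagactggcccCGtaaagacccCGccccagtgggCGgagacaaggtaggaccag
Zfp455, chr13:67194256-67194505, plus strand: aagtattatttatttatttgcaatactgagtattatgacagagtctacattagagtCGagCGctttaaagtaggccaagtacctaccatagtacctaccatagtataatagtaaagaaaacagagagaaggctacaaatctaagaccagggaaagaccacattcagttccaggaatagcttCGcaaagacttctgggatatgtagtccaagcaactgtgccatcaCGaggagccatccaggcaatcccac

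These windows held 23, 29, 10, 14 and 4 CG pairs in that order. Over the 10527 tested genes with such a window the median was 16, with quartiles at 9 and 23, so the gene with the largest rise and the gene with the largest fall were both at or above the upper quartile. Methylation was not measured. The letters GGGNNNNNCC, searched on both strands, were found in 61.1% of those windows, and in those of Zfp37, Zfp367 and Zfp455. The letters TTCNNNGAA, which read the same on both strands, were found in 6.05% of them, and of the 5 shown in that of Zfp455.

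Total counts were 17362546 to 33500030 per library. Dnmt1 was 86.5 to 211 CPM in the 16 si-control libraries and 5.11 to 17.3 in the 16 si-dnmt libraries, which did not overlap. All 10 endothelial markers listed were present (2696 to 8443 CPM summed per library). A mean of 1 CPM was reached by 1 of 6 epithelial genes (Krt18) and 2 of 5 fibroblast genes (Pdgfra and Dcn). It was also reached by 1 of 6 leukocyte genes (Cd68) and by 0 of 5 pericyte genes. Summed per library, these lists reached at most 23.3, 57.7, 218 and 2.65 CPM in that order. Sftpc and Cd3e were at 0 in every library. In every group, the libraries of replicates 1 and 2 stood apart from those of replicates 3 and 4, and the labels name no batch. Replicates with the same number deviated together, with a median correlation of 0.415. Other numbers within replicates 1 and 2 or within 3 and 4 did so about as much, with a median of 0.409. The fit with the replicate number as a block is given where it changes a call.

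Together the members took 0.507% to 0.651% of the counts of a library. The group means (± SD, n = 4) were 0.609% ± 0.037 in si-control, 0.619% ± 0.017 with TNF, 0.553% ± 0.013 with IFN and 0.540% ± 0.014 with TNF + IFN. In si-dnmt they were 0.599% ± 0.026, 0.579% ± 0.018, 0.560% ± 0.021 and 0.531% ± 0.026 in the same order. With either siRNA, all 4 libraries with TNF + IFN were below all 4 without cytokine. These shares are of library totals. On that scale the median of all genes also moved with TNF + IFN, by -0.178 (log2) in si-control and -0.175 in si-dnmt, and with TMM factors the member medians were 0.015 and -0.026. Per kilobase of annotated exon, the median member had a level of 2.87 CPM per kb, and the highest was Zfp207, a spindle assembly factor, at 24.4. KRAB members had a median level of 2.31 CPM per kb and the others 3.90.

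The first comparison asked which way the members moved when Dnmt1 was silenced. Averaged over the 4 cytokine states, 54 of the 289 members rose and 90 fell (edgeR, adjusted p under 0.05). Of all 15250 genes tested, 24.4% rose and 24.0% fell, which for the members corresponds to 18.7% and 31.1%. The median log2 fold change was -0.063 over the members and -0.002 over all genes. Falls thus outnumbered rises among the members and not among all genes, but most of the effects were small. The change was at least 2-fold in 3 of the 144 members called, Zfp37, Zfp367 and Zfp81, and in 823 of the 7390 genes called over the whole table.

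The split depended on the scaling. With library totals in place of TMM factors, the log2 fold change of the median gene moved from -0.002 to 0.077, and 81 members rose while 68 fell (all genes 32% and 17.6%), with a member median of 0.016. Relative to the median gene the members were low under both scalings. With DESeq2's median-of-ratios factors in edgeR, 56 rose and 86 fell (25.3% and 23.2%).

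**Figure D1:**
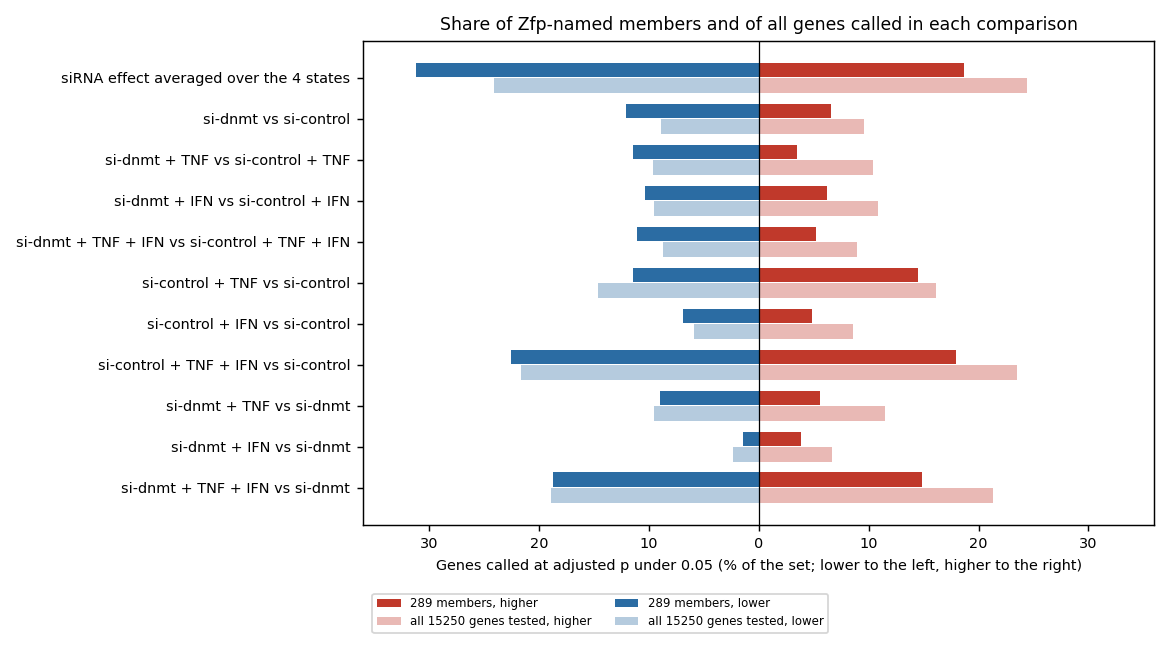
Share of the 289 members (full colour) and of all 15250 genes tested (pale) called higher (red, to the right) or lower (blue, to the left) in each comparison, in percent of the set. In the siRNA comparisons the members' blue bars are longer than those of all genes and their red bars shorter.

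Each cytokine state was then taken on its own, with no library shared between states. Without cytokine, 19 members rose and 35 fell with si-dnmt, against 9.57% and 8.89% of all genes. With TNF, 10 rose and 33 fell (all genes 10.4% and 9.59%). With IFN, 18 rose and 30 fell (10.8% and 9.54%). With TNF + IFN, 15 rose and 32 fell (8.98% and 8.72%). The member medians were -0.051, -0.102, -0.051 and -0.075 on the log2 scale, and the medians of all genes lay between -0.0067 and 0.004.

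The blocked fit raised these counts. It called 33 up and 57 down without cytokine (all genes 16.6% and 15.8%) and 25 and 61 with TNF (17.2% and 16.2%). With IFN it called 32 and 54 (17.9% and 16.6%), and with TNF + IFN 27 and 49 (15.2% and 15.6%). With TNF + IFN, replicates 1 and 2 alone gave 25 up and 25 down with a member median of 0.0077 (all genes 11.9% and 11.8%). Replicates 3 and 4 alone gave 22 and 67 with a median of -0.141 (17.1% and 19.1%). Leaving out si-dnmt replicate 3 lowered the count without cytokine from 54 to 31. With library totals the splits became 31 and 25 without cytokine (all genes 13.9% and 6.16%), 21 and 24 with TNF (13.5% and 7.03%), 40 and 19 with IFN (15.9% and 6.44%), and 29 and 26 with both (12.4% and 6.35%). Falls among the members thus outnumbered rises under both scalings with TNF, and in the other 3 states the balance turned with the scaling.

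The sign was below 0 in all 4 states in 111 members (38.4%, against 29.0% of all genes) and above 0 in all 4 in 60 (20.8%, against 29.0%). Of the members 0, and of all genes 0.118%, were called up in one state and down in another. The members called in every state numbered 6 up and 13 down, where 3.91% and 3.59% of all genes were. Those up were Zfp37, Zfp335, Zfp809, Zfp275, Zfp334 and Zfp282. Those down were Zfp367, Zfp81, Zfp760, Zfp106, Zfp516, Zfp41, Zfp113, Zfp873, Zfp397, Zfp266, Zfp260, Zfp148 and Zfp277. KRAB proteins made up 4 of the 6 and 5 of the 13, against 171 of the 287 members with a coding sequence.

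Zfp367, a C2H2 factor with few fingers, had the largest fall. It ranged over 28.1, 49.9 and 79.9 CPM (lowest, median and highest of 16) in si-control libraries and 9.38, 15.8 and 39.6 in si-dnmt. Without cytokine it was 32.4, 28.1, 37.8 and 37.1 CPM in replicates 1 to 4 of si-control and 10.6, 12.7, 9.38 and 10.7 in si-dnmt. The ranges overlapped across states, and within each state the 4 si-dnmt libraries were all below the 4 si-control libraries. The averaged log2 fold change was -1.54 ± 0.09 (SE, adjusted p = 5.66e-14), and the values by state lay between -1.65 and -1.38.

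Zfp81, a KRAB protein, was 15.8, 20.6 and 29.0 CPM in si-control and 7.91, 10.2 and 14.6 in si-dnmt (lowest, median and highest), with no overlap. Its averaged log2 fold change was -1.03 ± 0.08. Zfp106, an RNA-binding protein needed by motor neurons, was 186, 208 and 229 CPM in si-control and 79.6, 112 and 145 in si-dnmt, again with no overlap. It fell by 0.92 ± 0.06 on the log2 scale. Zfp516, an activator of brown fat genes, was 52.3, 64.5 and 80.6 against 28.6, 36.9 and 47.1 CPM and fell by 0.90 ± 0.06 with no overlap. More than 25% of the annotated exon bases of Zfp106 (26.1%) and of Zfp335 (28.3%) overlap another gene, whose reads could be counted with theirs.

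Of the other large falls, Zfp760 was at -0.96 ± 0.11, Zfp13 at -0.96 ± 0.15, Zfp41 at -0.89 ± 0.08 and Zfp423 at -0.93 ± 0.11 on the log2 scale. Zfp423 is a partner of EBF factors in early fat cells. Zfp13 and Zfp760 are KRAB proteins. In all 4 the si-control and si-dnmt ranges over 16 libraries overlapped.

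Zfp37, a KRAB protein, had the largest rise, from a level near the 2 CPM limit. It was 1.30, 1.69 and 2.35 CPM in si-control and 1.87, 3.52 and 4.97 in si-dnmt. Without cytokine it was 1.88, 1.70, 1.58 and 1.70 CPM in replicates 1 to 4 of si-control and 1.87, 3.04, 3.21 and 3.34 in si-dnmt, so 1 si-dnmt library lay within the si-control range. With TNF, IFN or both the groups did not overlap. The averaged log2 fold change was 1.05 ± 0.09 (adjusted p = 4.79e-10).

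Zfp335, which joins a histone methyltransferase complex and is needed in neural progenitors, was 17.9, 23.8 and 26.5 CPM in si-control and 32.2, 38.9 and 42.5 in si-dnmt, with no overlap over 16 and 16 libraries. It rose by 0.70 ± 0.05 on the log2 scale. The remaining leading rises were Zfp568 at 0.63 ± 0.11, Zfp709 at 0.60 ± 0.12, Zfp185 at 0.59 ± 0.09, Zfp493 at 0.57 ± 0.14, Zfp948 at 0.54 ± 0.06 and Zfp296 at 0.54 ± 0.13. The rise of Zfp948 was 0.87 ± 0.12 without cytokine (21.8 ± 1.28 to 39.8 ± 7.60 CPM) and 0.24 ± 0.12 with TNF + IFN (adjusted p = 0.181). The test of the difference between these gave -0.63 ± 0.17 (adjusted p = 0.0788), which passed with the block and in DESeq2.

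**Figure D2:**
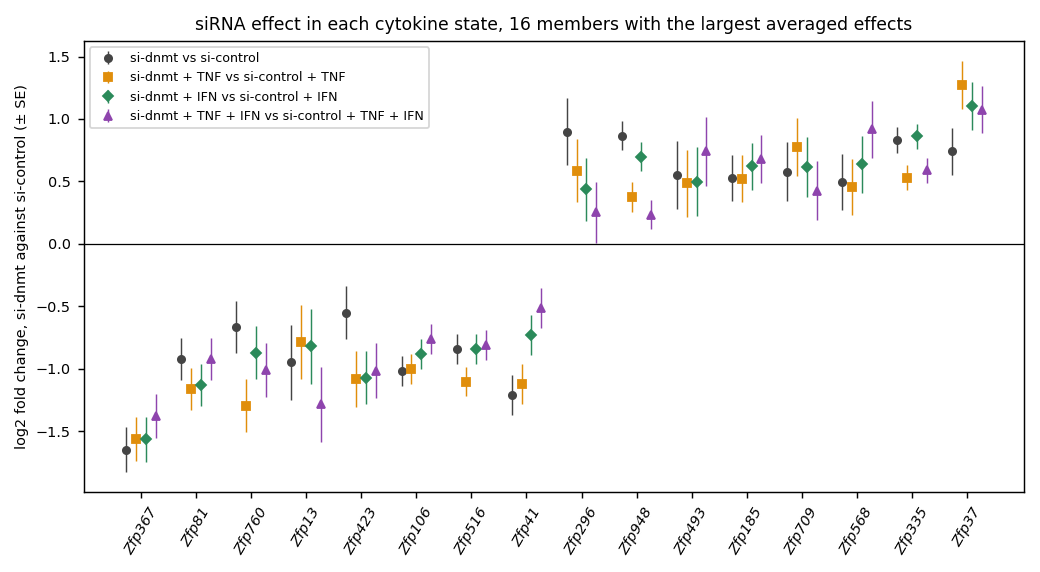
log2 fold change of si-dnmt against si-control (± SE) for the 8 largest averaged falls and the 8 largest averaged rises, with 1 symbol for each cytokine state. Every point keeps the sign of the averaged effect, and those of Zfp367 lie between -1.65 and -1.38.

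Members known for silencing imprints or retroelements did not move one way. Of the 5 that were members, 2 rose, 1 fell and 2 did not pass the test (all genes 24.4% up and 24.0% down). Zfp809, which targets the primer binding site of retroviruses, rose by 0.52 ± 0.06 (adjusted p = 1.46e-08). It was 10.8, 12.5 and 16.7 CPM in si-control and 15.7, 18.1 and 22.0 in si-dnmt, and the values by state lay between 0.49 and 0.56. Zfp568, which silences a placental transcript of Igf2, was 28.8 ± 9.21 CPM in si-control and 43.8 ± 8.08 in si-dnmt (SD, n = 16). Zfp57, which keeps imprints, fell by 0.30 ± 0.08 (24.4 ± 8.53 to 19.4 ± 5.77 CPM, adjusted p = 0.00185). Zfp445, also a keeper of imprints, was at 0.14 ± 0.06 (adjusted p = 0.0597, and 0.00145 with the block). Zfp932 was at 0.07 ± 0.05 (adjusted p = 0.316), and 37.0% of the 50-base words of its transcripts also occur in other genes.

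Of 9 members that act on RNA, 2 rose and 4 fell (all genes 24.4% and 24.0%). Zfp36 (tristetraprolin), which brings on the decay of TNF and other cytokine messages, rose by 0.33 ± 0.07. Zfp346, which binds double-stranded RNA, rose by 0.26 ± 0.06. Besides Zfp106, those that fell were Zfp598, which ubiquitinates collided ribosomes (-0.25 ± 0.05), Zfp622, a ribosome assembly factor (-0.21 ± 0.05), and Zfp706 (-0.18 ± 0.03). The splicing factor Zfp326 was at 0.00 ± 0.06, with Zfp638 at -0.04 ± 0.06 and Zfp318 at 0.10 ± 0.06.

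Of 17 listed sequence-specific factors and cofactors, among which Zfp746 matched the KRAB profile, 13 fell and 1 rose, with a median of -0.304. Of all genes, 24.0% fell and 24.4% rose. This list, like the other role lists, was chosen with earlier results of these data known. The split is therefore a description of the listed genes and not a test of their kind. Zfp131 was at -0.53 ± 0.05, Zfp148, which binds GC-rich promoters, at -0.41 ± 0.04, and Zfp143, a promoter-bound factor, at -0.22 ± 0.05. Zfp281, a regulator of stem cell states, was at -0.25 ± 0.08, and Zfp521, a relative of Zfp423, at -0.32 ± 0.08. Zfp703 and Zfp217, both amplified in breast cancers, were at -0.30 ± 0.07 and -0.15 ± 0.06. The call of Zfp217 (adjusted p = 0.0487) was lost in 19 of 32 fits that each left out 1 library. Zfp64 was the member that rose, by 0.21 ± 0.08. Zfp366, a corepressor-binding factor of dendritic cells, was at -0.27 ± 0.29 (adjusted p = 0.473) but at -0.38 with an adjusted p of 0.00979 under the block. Its effect was -0.04 in replicates 1 and 2 and -0.84 in replicates 3 and 4.

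Of 9 partners of chromatin or transcription complexes, 5 rose and 2 fell (all genes 24.4% and 24.0%). Those that rose were Zfp335, the SUMO ligase Zfp451 (0.32 ± 0.04), Zfp687 (0.20 ± 0.05), the cohesin loader partner Zfp609 (0.19 ± 0.05) and Zfp592 (0.12 ± 0.04). Zfp687, Zfp592 and Zfp532 belong to 1 complex, yet Zfp532 fell (-0.24 ± 0.05). Of the annotated exon bases of Zfp532, 28.7% overlap another gene, whose reads could be counted with its own. The other fall was Zfp827 at -0.63 ± 0.13. Of the abundant members outside these lists, Zfp207 was at -0.31 ± 0.05 and Zfp91, a ubiquitin ligase of the NF-κB pathway, at 0.12 ± 0.05. The call of Zfp91 (adjusted p = 0.046) was lost in 21 of 32 such fits.

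The counts were also taken by protein kind, where 24.4% of all genes rose and 24.0% fell. Of 171 with a KRAB box, 31 rose and 46 fell with si-dnmt (18.1% and 26.9%), with a median of -0.054. Of 116 without one, 23 rose and 43 fell (19.8% and 37.1%), with a median of -0.087. Members beside another Zfp-named gene had a median of -0.052 and the others -0.092. Leaving out the 59 members whose sequence or exons are shared with other genes left 48 rises and 70 falls of 230, with a median of -0.054.

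The 240 members with a RefSeq start were also split by the CG pairs in the 300 bases around it. Their median was 14.5 CG, and that of all tested genes 20. With 0 to 8 CG, 6 of 59 members rose and 23 fell (median -0.131), while of the 1870 genes tested in that class 529 rose and 335 fell (median 0.089). With 9 to 14 CG, 13 of 61 members rose and 12 fell (median -0.043), and all genes of that class had a median of -0.011. With 15 to 20 CG, 14 of 57 rose and 13 fell (-0.041, all genes 0.006), and with 21 or more, 13 of 63 rose and 23 fell (-0.049, all genes 0.000). In the classes with 9 or more CG, the counts of all genes called are not given here, so the member counts there have no background beside them. In the class with the fewest CG pairs, the member median and that of all genes thus lay on opposite sides of 0. Of its 59 members, 26 share sequence or exons with other genes, and without them 5 of 33 rose and 10 fell (median -0.096).

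**Figure D3:**
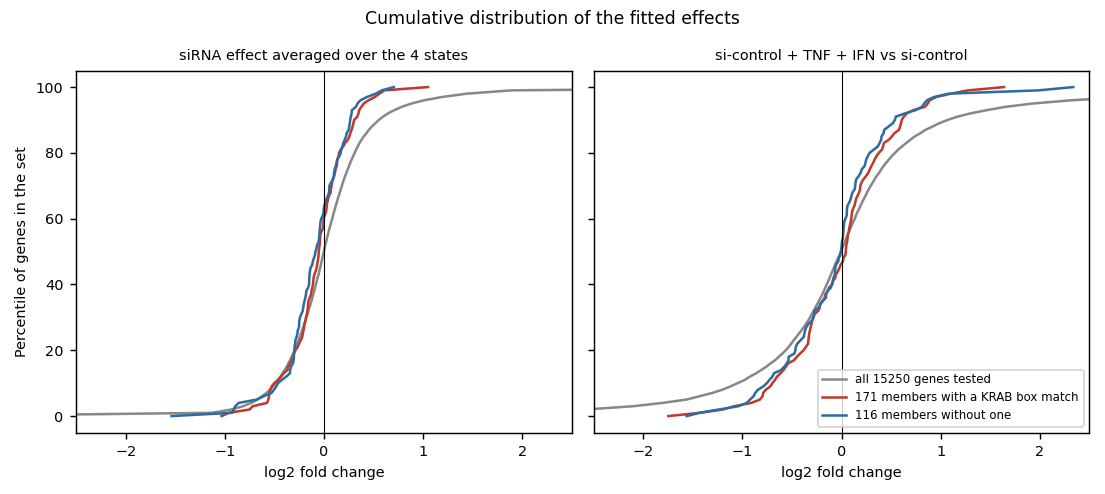
Cumulative distribution of fitted log2 fold changes for 171 members with a KRAB box match (red), 116 without (blue) and all 15250 genes tested (grey). The left panel shows the averaged siRNA effect, where both member curves pass 50% below 0 at -0.054 and -0.087, and the right panel TNF + IFN in si-control, where the member curves are steeper than that of all genes.

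The machinery that KRAB proteins recruit was measured in the same libraries. Of 27 listed cofactors and heterochromatin genes tested, 6 rose and 11 fell with si-dnmt (all genes 24.4% and 24.0%). Trim28, the scaffold, fell by 0.18 ± 0.04 and Setdb1 was at 0.08 ± 0.04 (adjusted p = 0.126). Its partner Atf7ip rose by 0.42 ± 0.06. The heterochromatin protein gene Cbx3 fell by 1.61 ± 0.09 and Cbx1 by 0.49 ± 0.06, while Cbx5 was at -0.08 ± 0.07 (adjusted p = 0.301). The other methyltransferases Dnmt3a and Dnmt3b rose by 0.71 ± 0.05 and 1.11 ± 0.09. Of related families, 13 of 36 Zbtb-named genes rose and 12 fell, against the same 24.4% and 24.0% of all genes. Of 15 Zscan- and Zkscan-named genes 0 rose and 7 fell, and of 11 Klf-named genes 0 rose and 4 fell. At an unadjusted p under 0.05, 25, 8 and 4 of them passed in either direction.

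Replicates 1 and 2 and replicates 3 and 4 were fitted separately. The averaged siRNA effect had the same sign in replicates 1 and 2 as in replicates 3 and 4 in 230 of 289 members, 94 above 0 and 136 below, with a Pearson r of 0.803 over the members, which share libraries. The number called in both pairs of replicates was 102, of which 34 rose in both, 66 fell in both and 2, Zfp180 and Zfp428, were called in opposite directions. The shares of all genes with the same sign, or called in both pairs, were not taken. These counts are therefore not read as particular to the members. Several leading falls were larger in the second pair. Zfp367 was at -1.19 in replicates 1 and 2 and -1.91 in replicates 3 and 4, Zfp81 at -0.72 and -1.33, and Zfp106 at -0.73 and -1.14. The difference between the pairs was not tested.

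**Figure D4:**
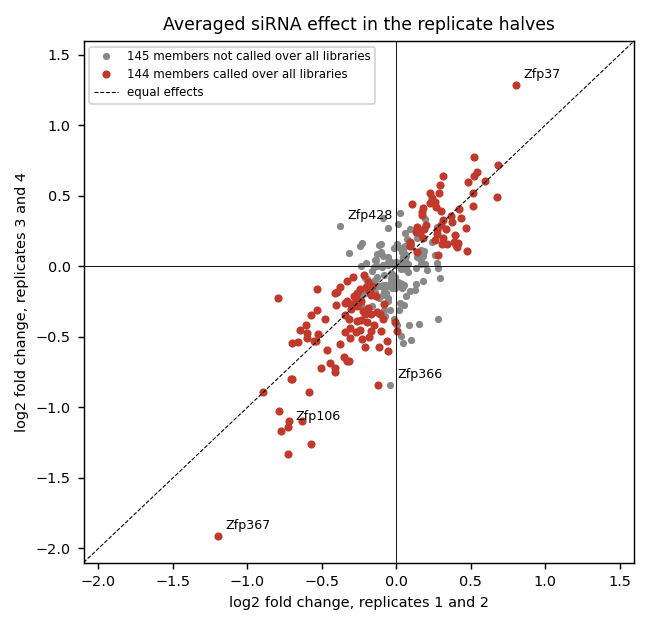
Averaged siRNA effect (log2 fold change) of the 289 members in replicates 1 and 2 (horizontal) and in replicates 3 and 4 (vertical), with the 144 members called over all libraries in red. Most red points share a sign in both pairs of replicates, and Zfp367 lies below the dashed line of equal effects at -1.19 and -1.91.

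The second question was how the members answered the cytokines. In si-control cells, TNF raised 42 members and lowered 33 (all genes 16.1% and 14.6%). IFN raised 14 and lowered 20 (8.57% and 5.92%), and the 2 cytokines together raised 52 and lowered 65 (23.5% and 21.6%). The member medians were 0.035, -0.047 and 0.015 on the log2 scale. With TNF, replicates 1 and 2 alone gave 33 up and 45 down with a median of -0.022 (all genes 20.0% and 17.2%), and replicates 3 and 4 alone gave 67 and 33 with a median of 0.106 (22.4% and 22.0%). The block raised the IFN calls to 20 up and 37 down (12.7% of all genes each way), and leaving out si-control replicate 2 lowered the 34 IFN calls to 22. Without scaling factors the split was 11 and 39 with IFN (all genes 6.92% and 10.7%) and 37 and 105 with TNF + IFN (16.8% and 31.3%), where the median of all genes moved to -0.104 and -0.178. The median of TNF + IFN was -0.092 in replicates 1 and 2 and 0.091 in replicates 3 and 4.

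In si-dnmt cells, TNF raised 16 members and lowered 26 (11.5% and 9.54%), IFN raised 11 and lowered 4 (6.66% and 2.35%), and TNF + IFN raised 43 and lowered 54 (21.3% and 18.9%). The blocked fit called 30 up and 40 down with TNF (all genes 17.8% and 16.5%) and 20 up and 20 down with IFN (10.9% and 8.05%). The 15 IFN calls fell to 9 without si-dnmt replicate 3 or without si-dnmt + IFN replicate 1. Without scaling factors the split was 8 and 17 with IFN (all genes 5.48% and 4.76%) and 25 and 101 with TNF + IFN (14.6% and 29.4%).

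The cytokine effects with the 2 siRNAs come from separate libraries. With TNF + IFN, 35 members rose with both, which is 67.3% of those that rose in si-control and 81.4% of those in si-dnmt, against 74.8% and 82.5% for all genes. The number that fell with both was 44, or 67.7% and 81.5% (all genes 69.6% and 79.9%). The sign was the same in 234 of 289 members (81.0%, against 82.8% of all genes), with a Pearson r of 0.867 over the members and 0.911 over all genes. With TNF, 14 rose with both siRNAs, which is 33.3% and 87.5% (all genes 55.5% and 77.7%), and 19 fell, 57.6% and 73.1% (52.4% and 80.2%). With IFN, 10 rose, 71.4% and 90.9% (66.6% and 85.8%), and 2 fell, 10% and 50% (30.8% and 77.4%).

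Zfp296, a factor of embryonic stem and germ cells, had the largest rise with TNF + IFN in si-control. It was 1.41, 0.795, 1.58 and 1.84 CPM in replicates 1 to 4 of si-control and 9.08, 9.84, 4.68 and 5.03 with TNF + IFN. The groups did not overlap, and replicates 1 and 2 with both cytokines were higher than replicates 3 and 4. The log2 fold change was 2.34 ± 0.27 (adjusted p = 4.03e-08), with 3.09 in replicates 1 and 2 and 1.50 in replicates 3 and 4. Each cytokine alone also raised it, TNF by 1.38 ± 0.27 and IFN by 1.31 ± 0.27. In si-dnmt it was 2.14, 3.29, 2.05 and 3.09 CPM without cytokine and 8.49, 8.40, 8.96 and 8.35 with TNF + IFN, a rise of 1.69 ± 0.26.

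Zfp36 is a known target of inflammatory signals. It was 11.1, 11.9, 9.32 and 7.27 CPM in si-control and 49.8, 47.1, 38.6 and 38.0 with TNF + IFN, with no overlap (2.13 ± 0.16, adjusted p = 4.94e-12). TNF alone raised it by 0.56 ± 0.15 and IFN alone by 0.95 ± 0.15. In si-dnmt it was 14.4, 15.8, 13.1 and 13.6 CPM without cytokine and 46.6, 57.2, 48.6 and 52.1 with TNF + IFN (1.85 ± 0.15). The test of a different response between the siRNAs gave -0.29 ± 0.21 (adjusted p = 0.781).

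Zfp455, a KRAB protein, rose with each cytokine. It was 3.75, 5.04, 3.87 and 4.13 CPM in si-control, 10.9, 11.9, 11.1 and 9.56 with IFN and 12.2, 12.96, 13.5 and 13.7 with TNF + IFN. The 2 treated groups did not overlap and both lay above si-control. The log2 fold changes were 1.37 ± 0.14 with IFN, 0.64 ± 0.14 with TNF and 1.64 ± 0.14 with both. In si-dnmt they were 1.46 ± 0.14, 0.64 ± 0.14 and 1.70 ± 0.14. Of its 50-base words, 10.1% occur in other genes.

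The other leading rises with TNF + IFN in si-control were Zfp429 and Zfp382, both KRAB proteins. Zfp429 rose by 1.275 ± 0.16 from 6.77 ± 1.32 to 16.4 ± 2.17 CPM, and 25% of its words are shared. Zfp382 rose by 1.272 ± 0.13 from 4.68 ± 0.72 to 11.3 ± 0.54 CPM. Zfp945 rose with IFN by 1.10 ± 0.19 in si-control and by 1.00 ± 0.19 in si-dnmt. Zfp658 and Zfp456 rose with TNF in si-control by 1.25 ± 0.26 and 0.90 ± 0.25, and 18.1% of the words of Zfp456 are shared.

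The leading falls with TNF + IFN in si-control were Zfp979 (-1.75 ± 0.29), Zfp30 (-1.62 ± 0.21), Zfp704 (-1.56 ± 0.14), Zfp651 (-1.46 ± 0.23) and Zfp69 (-1.35 ± 0.22). Zfp979, Zfp30 and Zfp69 are KRAB proteins, and 26.7% of the words of Zfp979 are shared. Zfp704 was 37.6, 34.7, 35.9 and 37.4 CPM in si-control, 17.2, 17.5, 19.4 and 19.2 with IFN and 11.4, 8.90, 15.2 and 13.8 with TNF + IFN. These 3 groups did not overlap. Zfp30 was 4.36, 4.66, 6.11 and 5.74 CPM in si-control and 2.16, 0.937, 1.79 and 1.91 with TNF + IFN. In si-dnmt the falls of Zfp979 and Zfp30 were -1.99 ± 0.30 and -1.89 ± 0.21. The IFN calls of Zfp69 (-0.73) and Zfp30 (-0.65) in si-control were lost in 3 and 4 of 8 fits that each left out 1 library.

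Zfp423 and its relative Zfp521 had the largest falls among the members with TNF in si-dnmt. Zfp423 was 9.92, 8.98, 10.95 and 11.5 CPM in si-dnmt and 4.35, 3.57, 4.66 and 5.86 with TNF, with no overlap (-1.17 ± 0.22). Zfp521 was 144, 135, 114 and 107 CPM in si-dnmt and 70.6, 70.5, 40.6 and 43.1 with TNF (-1.15 ± 0.17). In si-control, Zfp521 fell by 0.89 ± 0.17 with TNF + IFN. Zfp398 fell with IFN in si-dnmt (-0.60 ± 0.17), a call lost in 3 of 8 fits without 1 library.

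Members of the role lists moved both ways with TNF + IFN in si-control, where 23.5% of all genes rose and 21.6% fell. Of 9 that act on RNA, 2 rose and 3 fell, of 17 sequence-specific factors 5 rose and 5 fell, and of 9 complex partners 1 rose and 1 fell. Of the 5 silencing members, Zfp932 rose by 0.61 ± 0.11, Zfp57 fell by 1.10 ± 0.16 and Zfp568 by 0.72 ± 0.23. Zfp57 was 33.4, 32.3, 28.1 and 31.8 CPM in si-control and 13.3, 16.6, 12.5 and 16.3 with TNF + IFN, with no overlap. Zfp281 rose by 0.98 ± 0.16, and Zfp703 fell by 0.85 ± 0.13. Zfp143 (0.27 ± 0.09) and Zfp217 (-0.38 ± 0.13) each lost the call in 2 of 8 fits without 1 library. Zfp366 (-1.11 ± 0.58), Zfp91 (0.19 ± 0.10), Zfp106 (0.23 ± 0.12) and Zfp207 (-0.20 ± 0.09) passed the test with the block alone, at adjusted p of 0.000128, 0.0204, 0.0449 and 0.0151. Of the cofactor list, 8 of 27 rose and 10 fell (all genes 23.5% and 21.6%). Among them were Daxx at 2.64 ± 0.24 and Chd3 at -2.23 ± 0.17.

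**Figure D5:**
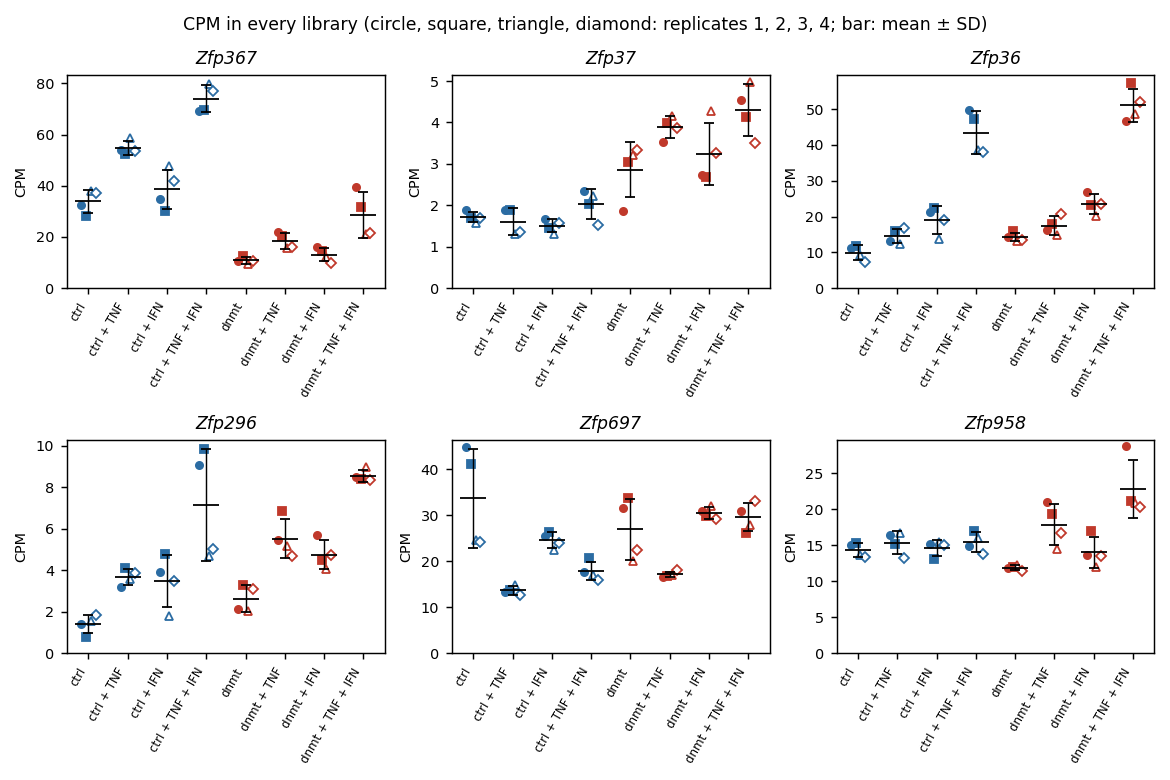
CPM of 6 members in each of the 32 libraries, with si-control groups in blue, si-dnmt groups in red, a symbol for each replicate number and bars at the group mean ± SD. Zfp367 is lower and Zfp37 higher in si-dnmt, Zfp36 and Zfp296 rise with TNF + IFN with either siRNA, and Zfp697 and Zfp958 differ between the siRNAs in their response.

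The last question was whether a cytokine response differed between the siRNAs. For TNF alone, 0 members passed the test of the difference (0.0328% of all genes), with 24 at an unadjusted p under 0.05. DESeq2 gave an adjusted p to 120 of the members there and called 0. For IFN alone, 0 members passed (0.0459% of all genes), with 3 at an unadjusted p under 0.05 and 0 called by DESeq2. For TNF + IFN, 3 members passed, all with a more positive log2 fold change in si-dnmt (0.531% of all genes passed in either direction). Of these, Zfp958 rose in si-dnmt, Zfp706 fell less there, and Zfp697 fell in si-control and not in si-dnmt. Higher and lower below give the sign of this difference, not the size of the response. The block called 6 higher and 3 lower (all genes 1.61% and 2.57%), and DESeq2 4 and 3 (0.475% and 0.994%). Replicates 1 and 2 alone gave 9 higher and 2 lower (1.49% and 3.37%). Replicates 3 and 4 alone gave 7 and 23 (5.07% and 6.76%), so negative differences outnumbered positive ones in the second pair. In 6 of the 16 fits that each left out 1 library the count fell to 1, namely without si-control replicate 1 or 2, si-control + TNF + IFN replicate 1 or 4, or si-dnmt replicate 3 or 4.

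Zfp697, a C2H2 protein without a KRAB box, had the largest difference. In si-control it was 44.8, 41.0, 24.6 and 24.2 CPM in replicates 1 to 4 and 17.7, 20.6, 16.9 and 16.0 with TNF + IFN. In si-dnmt it was 31.6, 33.7, 20.1 and 22.5 CPM and 30.8, 26.2, 28.0 and 33.1 with TNF + IFN. The si-control groups did not overlap, while the si-dnmt groups did. The response was -0.91 ± 0.16 in si-control and 0.13 ± 0.16 in si-dnmt, a difference of 1.05 ± 0.23 (adjusted p = 0.0249). The call was lost in 8 of 16 fits without 1 library, and a fit of the compared groups alone gave an adjusted p of 0.167. Of its 50-base words, 10.5% occur in other genes.

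Zfp958, a KRAB protein, was 15.1, 15.4, 13.7 and 13.4 CPM in si-control and 14.9, 17.1, 16.1 and 13.8 with TNF + IFN. In si-dnmt it was 11.8, 12.02, 12.4 and 11.4 CPM and 28.8, 21.2, 20.9 and 20.4 with TNF + IFN. The si-control groups overlapped and the si-dnmt groups did not. The responses were 0.10 ± 0.12 and 0.94 ± 0.12, a difference of 0.83 ± 0.17 (adjusted p = 0.0195), which was kept in all 16 fits without 1 library and was at an adjusted p of 0.068 without the filter on low counts.

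Zfp706 was named after its values were seen. It was 95.3, 97.0, 94.2 and 94.0 CPM in si-control and 58.6, 64.0, 66.6 and 64.7 with TNF + IFN. In si-dnmt it was 72.4, 69.7, 71.7 and 74.0 CPM and 63.6, 62.5, 62.4 and 63.4 with TNF + IFN. With both cytokines the siRNA groups overlapped, and without cytokine si-dnmt was lower. The responses were -0.58 ± 0.06 and -0.19 ± 0.06, a difference of 0.39 ± 0.09 (adjusted p = 0.0366). The adjusted p was 0.068 without scaling factors and 0.43 without the filter on low counts.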

How the data were processed

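RNA was sequenced from 32 libraries of Veravec cells, in 8 groups of 4 biological replicates. The authors trimmed reads with cutadapt (version 4.9), checked them with FastQC (0.12.1) and MultiQC (1.27.1), and counted them per gene with featureCounts. They deposited raw counts per gene. For the aligner, genome build, annotation and strand setting, the tool, version or option is not given in the sources used. The submitters' processing notes also name DESeq2.

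All 32 libraries were fitted together with edgeR (4.0.16, R 4.3.3) as 8 group means. Genes were kept by filterByExpr at a minimum count of 10, which left 15250. TMM factors ran from 0.88 to 1.09. Calls were quasi-likelihood F tests with Benjamini-Hochberg adjustment over all genes, at an adjusted p under 0.05. SE is the log2 fold change over the square root of F. The fits were tested on simulated data. CPM of the members by library, by group and pooled over states was scaled with TMM factors. The 2 CPM limit, the levels per kb and the shares of counts used library totals with no scaling factor. Depth was 17362546 to 33500030 counts per library.

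KRAB boxes were matched with a profile (pyhmmer 0.12.3, E-value under 0.001), and fingers by pattern, on GENCODE M21. The profile was built from 150 boxes of 35 residues in proteins of Zfp-named genes at any level. A member was called shared when over 10% of its 50-base words occur in other genes or over 25% of its exon bases overlap another gene. RefSeq starts were matched by symbol for 240 members.

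Deviations from the group means correlated between same-numbered libraries at 0.297 to 0.618 (median 0.415, 112 pairs). For other numbers within replicates 1 and 2 or 3 and 4 the median was 0.409, and across these pairs -0.41. Own number was the best match in 132 of 224 cases.

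The members and gene lists were chosen with earlier results of these data known. Named were listed members of known role, the largest calls of each comparison, and the calls of the interactions by size. Alternatives were other scaling, DESeq2 (1.42.0), no filter, the replicate block, each of these pairs alone, the compared groups alone and leaving out each library.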

Additional observations from a re-analysis of the deposited data

Results flagged for a closer look

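The 16 members shown by library were part of a screen of 136 groups of 4 for a library far from the others. In such a screen chance flags about 1 in 20 groups. The screen marked 5. Zfp335 was 38.8 CPM in si-dnmt + TNF replicate 4, against 32.2 to 32.7 in the other replicates. Zfp958 was 13.1 CPM in si-control + IFN replicate 2 (others 15.1 to 15.4) and 28.8 in si-dnmt + TNF + IFN replicate 1 (others 20.4 to 21.2). Zfp706 was 94.7 CPM in si-control + IFN replicate 3 (others 79.4 to 80.9) and 71.3 in si-dnmt + TNF replicate 1 (others 68.4 to 68.6).

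The response to TNF + IFN differed between the siRNAs in 3 members by the interaction test of edgeR. The differences in log2 fold change were 1.05 for Zfp697, 0.83 for Zfp958 and 0.39 for Zfp706.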

How the results depend on the processing

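P-values measure the spread between these libraries of 1 cell line. Depth limits members near 2 CPM most. Causes of the changes below were not tested. Of the 100 results for named genes, alternatives other than leaving out a library gave 714 values with the same direction and call, 23 that gained the call, 25 that lost it and 7 that turned sign. Leaving out 1 library gave 1477, 9, 67 and 7.

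The replicate block raised the count of members called with si-dnmt to 90 without cytokine, 86 with TNF, 86 with IFN and 76 with TNF + IFN. It raised si-control IFN to 57, si-dnmt TNF to 70, si-dnmt IFN to 40 and the TNF + IFN interaction to 9. Of the 100 results for named genes it changed 6 calls, given with the results, and in the TNF + IFN interaction it also called Zfp41, Zfp131, Zfp217, Zfp422, Zfp777 and Zfp948. In replicates 1 and 2 alone the counts were 53 for si-control IFN, 65 for si-dnmt TNF, 33 for si-dnmt IFN, and 2, 1 and 11 for the TNF, IFN and TNF + IFN interactions. In replicates 3 and 4 alone they were 91, 85, 89 and 89 for the siRNA in the 4 states, 13 for the TNF interaction and 30 for that of TNF + IFN. Without the filter on low counts they were 27 without cytokine and 28 with IFN for the siRNA, 18 for si-control IFN, 27 for si-dnmt TNF, 9 for si-dnmt IFN and 1 for the TNF + IFN interaction. The compared groups alone gave 29 for the siRNA without cytokine, 45 for si-control TNF, 12 for si-control IFN and 1 for the TNF + IFN interaction. For si-dnmt IFN, library totals gave 25 and DESeq2 24, and DESeq2 gave 7 for the TNF + IFN interaction. The share of all genes called moved with the setting too. For the siRNA with TNF + IFN it was 8.98% up and 8.72% down over all 32 libraries, and 17.1% and 19.1% in replicates 3 and 4 alone. Where such a share is not given, the counts in this section are not read as a trait of the members.

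Leaving out 1 library gave 136 to 149 calls for the averaged siRNA effect. It gave 31 to 51, 35 to 45, 32 to 47 and 35 to 46 in the 4 states, 59 to 68, 22 to 36 and 101 to 118 for TNF, IFN and both in si-control, 29 to 39, 9 to 15 and 86 to 94 in si-dnmt, and 0 to 0, 0 to 0 and 1 to 4 for the interactions.

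The signs that turned belonged to TNF + IFN in si-control, in members not called there. Zfp445 was 0.011 without the filter and 0.095 in replicates 3 and 4. Zfp809 was -0.027 with library totals and -0.033 in replicates 1 and 2, and Zfp148 was -0.14 in both. Zfp598 was 0.032 in replicates 3 and 4. Over the fits without 1 library, Zfp445 ran from -0.074 to 0.048 and Zfp148 from -0.039 to 0.087.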
